A study of Mus musculus with 4 samples.

Results

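The 41 genes described here encode proteins that copy DNA and carry out mitosis. They were chosen by name, 20 for DNA replication and 21 for mitosis, and all 41 were found among the 14100 genes listed for every library. RNA of brain endothelial cells, the cells that line the vessels, was taken from C57BL/6 mouse embryos at embryonic day 18. Of the libraries, 2 carried the label STING ECKO (numbers 1 and 2) and 2 were wild type, WT (numbers 3 and 5). STING, the product of Tmem173, relays the sensing of DNA in the cytosol, and ECKO is read here as an endothelial knockout. The Cre driver, the way the cells were isolated and whether animals were pooled were not stated in the labels used here. The design text speaks of triplicates; 2 libraries per genotype were analysed here. The labels imply 1 comparison, STING ECKO against WT.

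A dividing cell first loads the MCM helicase onto replication origins with Cdc6 and Cdt1, and cyclin E and its kinase partner then help to start S phase. The helicase, opened by Cdc45 and the GINS complex, unwinds DNA for primase, DNA polymerase alpha and the sliding clamp Pcna, while ribonucleotide reductase and thymidylate synthase supply nucleotides. Cyclin B and Cdk1 then drive entry into mitosis, where aurora and polo kinases, kinesins and the spindle checkpoint sort the chromosomes. Replication genes are known targets of E2F factors, and many mitosis genes are controlled through the cell cycle genes homology region (CHR) together with CCAAT boxes, which bind NF-Y. Brain vessels still grow late in gestation, so that part of their endothelium is in cycle.

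E2F matches were mostly in replication promoters and CHR matches mostly in mitosis promoters. RefSeq windows of 300 bases (GRCm38.p6, 250 before to 50 after the transcript start) were matched for 35 of the 41 genes, and both strands were searched. For genes with several windows the first was counted. The E2F motif, spelled TTTCGCGC or TTTGGCGC, was in 6 of 17 replication promoters (35.3%), 1 of 18 mitosis promoters (5.56%), 188 of 17492 promoters of protein-coding genes (1.07%) and 225 of all 27025 promoters (0.833%). The CHR motif, TTTGAA, was in 13 of 18 mitosis promoters (72.2%), 2 of 17 replication promoters (11.8%), 16.5% of protein-coding promoters and 18.1% of all promoters. The CCAAT box was in 88.9% of mitosis, 64.7% of replication and 37.9% of all promoters. All 13 mitosis promoters with the CHR motif also held a CCAAT box, and 7.12% of all promoters held both. These are descriptions of letters, which were not tested for binding.

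The Cdk1 promoter held all of these motifs: 1 E2F match from 131 to 124 bases before the start, 2 CHR matches and 3 CCAAT boxes. The windows below are those of the 3 most abundant MCM genes with an E2F match and the 3 most abundant mitosis genes with a CHR match. In the MCM windows capitals mark the E2F motif on either strand. In the mitosis windows they mark the CHR motif and the CCAAT box, which read TTCAAA and ATTGG on the other strand.
Mcm6, chr1:128359656-128359955, minus strand: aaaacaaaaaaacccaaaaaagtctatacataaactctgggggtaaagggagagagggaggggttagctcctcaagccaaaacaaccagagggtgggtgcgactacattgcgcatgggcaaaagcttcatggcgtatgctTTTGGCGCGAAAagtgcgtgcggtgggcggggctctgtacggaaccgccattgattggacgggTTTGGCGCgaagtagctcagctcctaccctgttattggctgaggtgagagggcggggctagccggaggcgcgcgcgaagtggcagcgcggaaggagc
Mcm3, chr1:20820263-20820562, minus strand: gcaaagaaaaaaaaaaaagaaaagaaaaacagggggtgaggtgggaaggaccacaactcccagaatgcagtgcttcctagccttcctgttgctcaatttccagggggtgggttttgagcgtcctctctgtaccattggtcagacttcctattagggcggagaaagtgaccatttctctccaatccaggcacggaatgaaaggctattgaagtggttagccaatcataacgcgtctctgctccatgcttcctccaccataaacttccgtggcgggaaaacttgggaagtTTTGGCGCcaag
Mcm7, chr5:138171834-138172133, minus strand: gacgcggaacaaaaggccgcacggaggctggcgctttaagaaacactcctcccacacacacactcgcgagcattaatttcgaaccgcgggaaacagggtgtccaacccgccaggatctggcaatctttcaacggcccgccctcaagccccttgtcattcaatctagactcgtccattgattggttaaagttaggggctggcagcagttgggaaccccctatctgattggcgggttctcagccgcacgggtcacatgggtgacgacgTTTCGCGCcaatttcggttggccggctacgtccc
Mki67, chr7:135716330-135716629, minus strand: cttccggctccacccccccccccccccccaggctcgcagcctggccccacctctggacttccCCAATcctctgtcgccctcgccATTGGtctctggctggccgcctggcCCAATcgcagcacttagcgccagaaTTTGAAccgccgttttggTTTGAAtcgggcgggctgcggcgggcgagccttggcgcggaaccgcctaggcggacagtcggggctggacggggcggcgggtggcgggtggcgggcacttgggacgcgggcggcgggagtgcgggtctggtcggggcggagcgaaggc
Cdc20, chr4:118437294-118437593, minus strand: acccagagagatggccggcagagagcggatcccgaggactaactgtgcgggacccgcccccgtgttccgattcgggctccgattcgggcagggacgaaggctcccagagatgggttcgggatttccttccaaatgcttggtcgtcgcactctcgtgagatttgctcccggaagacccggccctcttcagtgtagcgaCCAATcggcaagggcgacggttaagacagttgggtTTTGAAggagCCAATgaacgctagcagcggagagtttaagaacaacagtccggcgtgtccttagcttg
Top2a, chr11:99024140-99024439, minus strand: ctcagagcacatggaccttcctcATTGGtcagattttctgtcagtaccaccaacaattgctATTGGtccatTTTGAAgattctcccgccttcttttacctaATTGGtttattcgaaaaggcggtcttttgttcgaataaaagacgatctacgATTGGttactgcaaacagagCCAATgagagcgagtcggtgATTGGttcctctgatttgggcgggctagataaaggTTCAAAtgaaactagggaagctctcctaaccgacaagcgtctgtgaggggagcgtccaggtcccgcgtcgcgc

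The Mcm6 window held 2 overlapping matches on opposite strands and a separate match nearer the start. In Mcm3 and Mcm7 the E2F match lay within the first 50 transcribed bases. The map of motif positions shows the CHR matches of mitosis genes mostly close to the start.

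**Figure D1:**
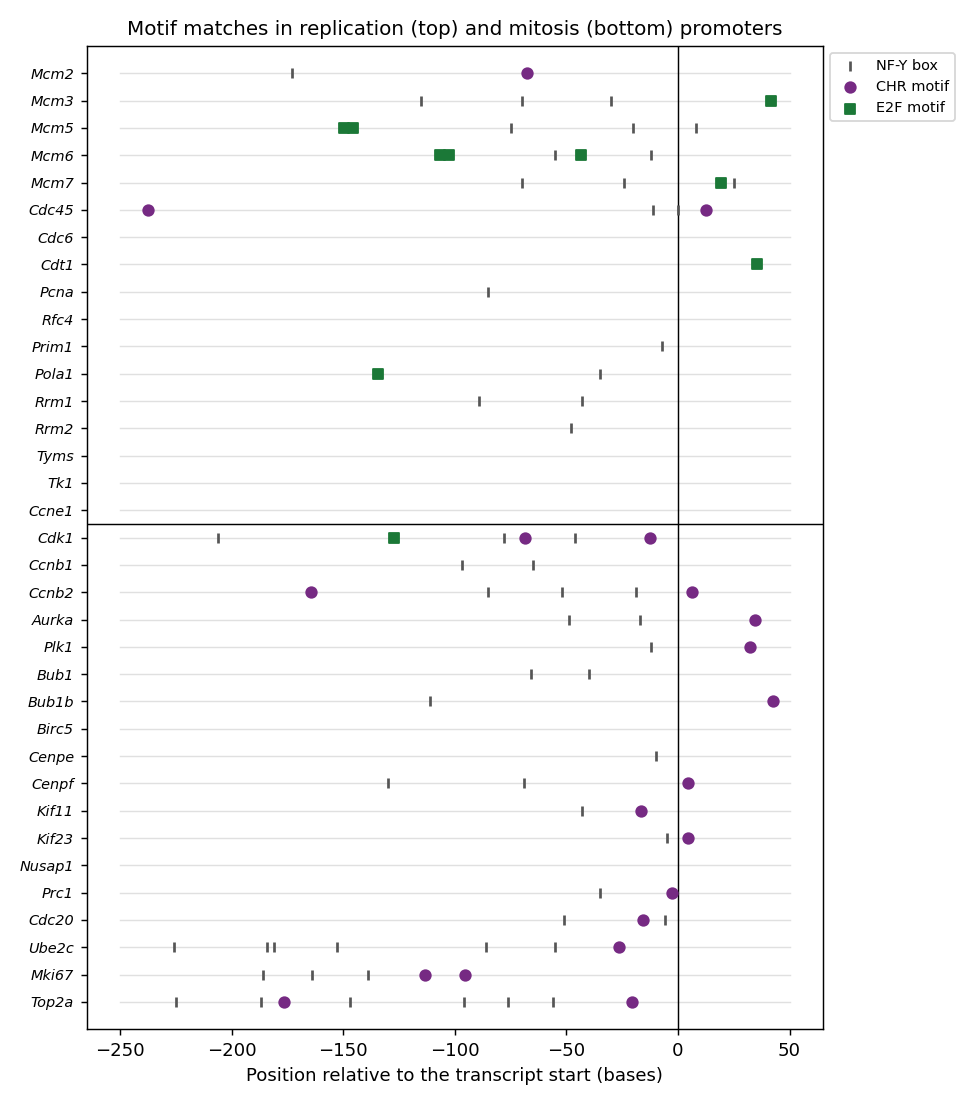
Positions of E2F motif (green squares), CHR motif (purple circles) and NF-Y (CCAAT) box (grey ticks) matches in the 35 promoter windows, in bases from the transcript start (vertical line). E2F matches sit in 6 of 17 replication promoters above the horizontal line and CHR matches in 13 of 18 mitosis promoters below it.

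Total counts were 18610298 and 22169261 reads for STING ECKO 1 and 2 against 21472677 and 20591981 for WT 3 and 5. Levels are read counts scaled to library size (CPM), adjusted with TMM factors, which even out differences in composition, so that 1 read was 0.0457 to 0.0545 CPM. STING ECKO 2 stood apart with 1855 of the 14100 genes at 0 reads, against 337 to 740 elsewhere. STING ECKO 1 alone had reads of Y-linked genes (Ddx3y, 3623 reads) and 0 reads of Xist, while the others had 876 to 3374 Xist reads. Sex therefore differed within STING ECKO. Tmem173 had 67 and 182 reads for STING ECKO 1 and 2 against 97 and 130 for WT 3 and 5, so its count did not separate the labels; its log2 fold change was 0.16 (SE 1.26, adjusted p = 1.00 by edgeR) and was -0.55 without STING ECKO 2. All 20 endothelial marker genes were measured, and their summed level was 33826 to 36807 CPM. Nothing in the labels ties each library to its own animals. By the sex genes the STING ECKO libraries came from different embryos, while for the WT libraries this is not known. The spread behind every p-value is that between these samples and may be partly technical.

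None of the 41 genes was called different between genotypes. With Benjamini-Hochberg adjustment over 13365 genes, the quasi-likelihood test of edgeR called 0 members and 0 genes in all (0%), and the smallest adjusted p of a member was 1.00. At an unadjusted p under 0.05 there was 1 member, Mcm3, where 4.80% of all genes lay. DESeq2 called 0 members and 87 genes (0.691%), the edgeR likelihood ratio test 0 members and 33 genes (0.247%), and limma-voom 0 of either. Log2 fold changes of STING ECKO over WT were below 0 in 28 members and above 0 in 13, with a median of -0.26, beside -0.03 for all genes tested. The median was -0.20 for the replication genes and -0.37 for the mitosis genes. Without WT 5 the median of the 41 turned to 0.28, and without WT 3 it was -0.71.

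**Figure D2:**
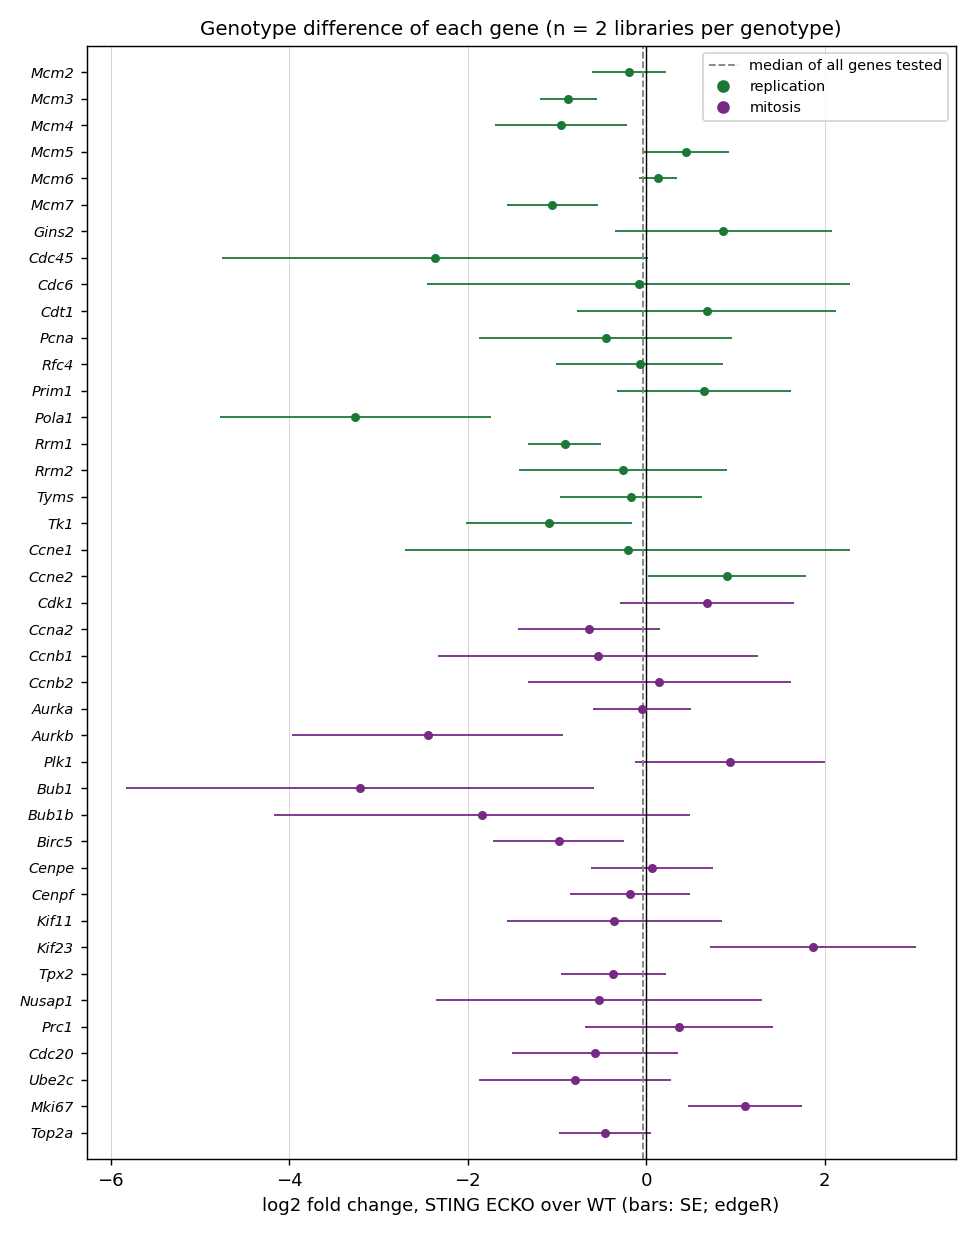
Log2 fold change of each gene, STING ECKO over WT (points) with its SE (bars), from the edgeR fit over all genes with 2 libraries per genotype, with replication genes in green and mitosis genes in purple. Of the points 28 lie left of 0, and the widest bars belong to genes with a library at or near 0 reads, such as Bub1 and Ccne1.

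The highest level of most of these genes was in one wild-type library. WT 5 had the highest level of 25 of the 41 genes, 11 of the replication and 14 of the mitosis genes, where it was highest for 23.7% of all genes tested. Summed over the 21 mitosis genes the level was 499 and 458 CPM for STING ECKO 1 and 2, then 382 for WT 3 and 800 for WT 5. Summed over the 20 replication genes it was 726, 666, 709 and 943 CPM in the same order. WT 3 thus lay below both STING ECKO libraries for mitosis and between them for replication, and the genotypes overlapped in both sums. In bulk RNA fewer cells in cycle and less of these RNAs per cell cannot be told apart. The mean of the log2 sums differed between genotypes, STING ECKO minus WT, by -0.21 for mitosis and -0.23 for replication. Spreads within a genotype were 0.54 and 0.22 (pooled SD of the log2 sums, n = 2 each). Without WT 3 these differences were -0.74 and -0.44, and without WT 5 they were 0.33 and -0.02.

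The summed markers of microglia and of astrocytes were also highest in WT 5. The 12 microglia and macrophage markers summed to 1351 CPM there and to 548 (STING ECKO 1), 417 (STING ECKO 2) and 552 (WT 3); 10 of 12 had a log2 fold change below 0 (median -1.52), with Ptprc and Itgam at 0 reads in STING ECKO 2. The 9 astrocyte markers measured summed to 1031 and 854 CPM for STING ECKO against 1115 and 1535 for WT. Their median level was 13.1 and 0.0457 CPM against 11.9 and 16.1, so a few abundant genes carried these sums. All 9 had a log2 fold change below 0 (median -2.63), as had 6918 of the 13365 genes tested. In 6 of the 9 both STING ECKO libraries lay below both WT libraries, as in 19.0% of all genes tested. Aqp4, Aldh1l1, Slc1a2 and Acsbg1 were at 0 reads in STING ECKO 2, as were 13.2% of all genes listed. The 6 oligodendrocyte lineage markers measured summed to 207 CPM in WT 5 and 121 to 182 elsewhere. Their median level did not follow, at 5.79 CPM in WT 5, below STING ECKO 1 (7.96) and WT 3 (6.45) and above STING ECKO 2 (0.732). Immediate early and stress genes summed to 3701 CPM in WT 5 and 2777 to 3222 elsewhere. The neural progenitor list did not follow, at 929 CPM in WT 5 and 757 to 1129 elsewhere, nor did the 6 erythroid genes measured, at 1314 CPM in WT 5 and 1229 to 2853 elsewhere. The part of these cells in the levels of the replication and mitosis genes was not tested. Scaled to the summed endothelial markers instead, WT 5 was highest for 23 of the 41 genes. That endothelial sum was 36449 CPM in WT 5 and 33826 to 36807 elsewhere. This scaling could thus change little, and it does not take out RNA of other cells. Pericyte and smooth muscle markers (10 of 12 measured) summed to 10185 and 10651 CPM for STING ECKO against 8304 and 7700 for WT, and neuron markers (9 of 10) to 71.9 and 42.2 against 158 and 108; their part was not tested either.

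**Figure D3:**
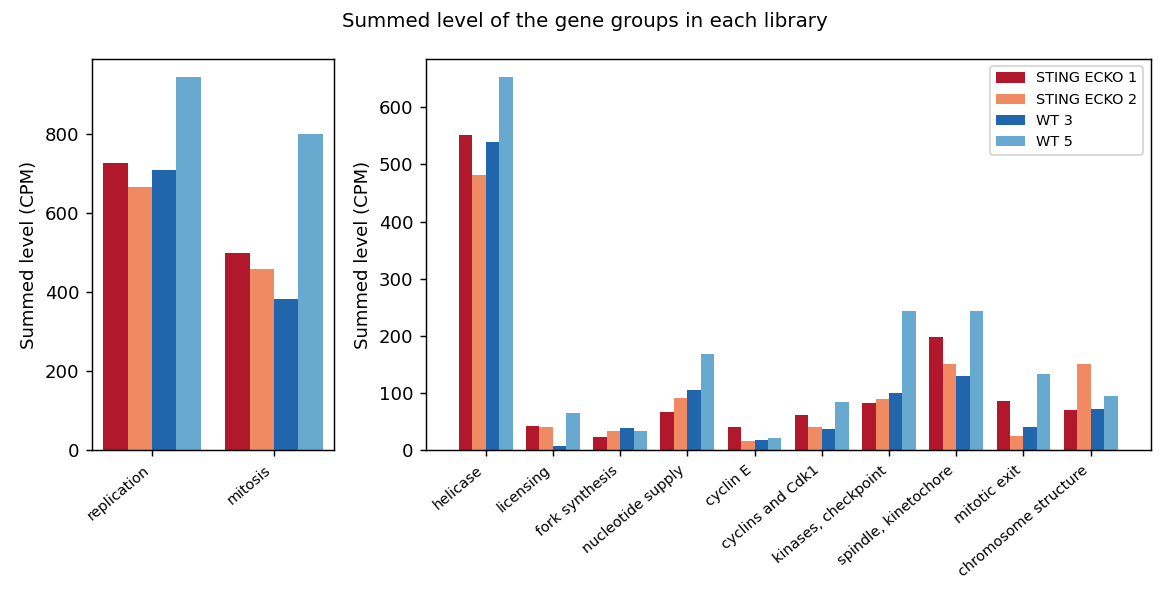
Summed level (CPM) of the replication and mitosis genes (left) and of each role group (right) in the 4 libraries, one bar per library. The mitosis sum is 800 CPM in WT 5 and 382 to 499 in the other libraries, and helicase genes make up most of the replication sum.

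The MCM helicase genes differed in level and did not share one direction. Among the 20 replication genes Mcm6 was the most abundant per length, at 64.2 CPM per kilobase of exon as the mean of the libraries. Mcm3 was at 37.1, Rrm1 at 17.9 and Mcm4 at 5.17. Mcm6 (chromosome 1, 128331590 to 128359664, minus strand, GRCm38) was at 305 and 282 CPM for STING ECKO 1 and 2 against 243 and 293 for WT 3 and 5. It was thus among the steadiest of the 41, with a ratio of 1.25 between its highest and lowest library. Mcm3 (chromosome 1, 20802968 to 20820312) was at 89.9 and 69.1 CPM for STING ECKO against 123 and 168 for WT. Both STING ECKO libraries lay below both WT libraries, a log2 fold change of -0.87 (SE 0.32), which did not pass by edgeR (unadjusted p = 0.0392, adjusted p = 1.00). Mcm7 (chromosome 5, 138164583 to 138172422) was at 41.4 and 22.2 CPM against 55.1 and 76.6, a log2 fold change of -1.05 (SE 0.51). Mcm7 overlaps Ap4m1 on the other strand and has a processed pseudogene, and 23.3% of its 50-base windows also occur in other transcripts.

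Mcm5 went the other way (chromosome 8, 75109569 to 75128439), at 53.5 and 39.4 CPM for STING ECKO against 38.2 and 29.9 for WT. Its log2 fold change was 0.45 (SE 0.48), and its lowest STING ECKO library was close to its highest WT library. Mcm2 was nearly level, at 42.4 to 51.8 CPM, and Mcm4 ranged from 10.2 to 25.6 CPM. Of these 6 subunits of one ring, 4 were lower in both STING ECKO libraries than in either WT library, 1 was higher and 1 overlapped. The background for such separation was 19.0% of all genes lower and 15.4% higher. Cdc45, which joins the helicase at the fork, had 26 and 0 reads for STING ECKO against 49 and 105 for WT. The GINS subunit Gins2 ranged from 3.65 to 11.2 CPM, but 65.4% of its windows lie in exons of Gse1 on the opposite strand, and the strand setting is not given in the sources used here.

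Origin licensing genes varied more between libraries of one genotype than between genotypes. Cdc6, the ATPase that loads MCM (chromosome 11, 98907801 to 98923940), had 150 and 860 reads for STING ECKO against 0 and 1041 for WT 3 and WT 5. A count of 0 allows up to 3 reads, or 0.139 CPM, in WT 3. Its partner Cdt1, which is described because of its values, stood at 34.7 and 1.87 CPM for STING ECKO against 6.98 and 15.9 for WT. STING ECKO 1 thus had the highest and STING ECKO 2 the lowest Cdt1 level, a ratio of 18.5.

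At the fork, Pola1, the catalytic subunit of DNA polymerase alpha (X chromosome, 93304767 to 93632155), had 33 and 15 reads for STING ECKO against 427 and 85 for WT. Both STING ECKO libraries were below both WT libraries, a log2 fold change of -3.26 (SE 1.52, unadjusted p = 0.0827 by edgeR). It was -1.72 without WT 3, the highest library. Pola1 is X-linked, and sex differed between the STING ECKO libraries. The part of sex in its level was not tested. Pcna, the sliding clamp, was at 3.32 and 2.29 CPM for STING ECKO against 1.99 and 5.69 for WT, with a log2 fold change of -0.45 (SE 1.42) that turned to 0.50 without WT 5. Its count is uncertain, since 19.1% of its windows also lie in the pseudogene Pcna-ps2. Rfc4, a clamp loader subunit, ranged from 8.67 to 14.1 CPM, and the primase gene Prim1 from 6.89 to 16.3 CPM.

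Genes of nucleotide supply all had log2 fold changes below 0, with 0 of 4 past the test. Rrm1, the large subunit of ribonucleotide reductase (chromosome 7, 102441695 to 102469771), was at 41.5 and 57.6 CPM for STING ECKO against 74.0 and 113 for WT. Its genotypes did not overlap, and its log2 fold change was -0.91 (SE 0.41). Its partner Rrm2 did overlap, between 3.87 and 10.4 CPM, as the highest STING ECKO library and WT 5 were level. Tyms, which makes thymidylate, stayed between 13.9 and 17.0 CPM, and thymidine kinase Tk1 was at 8.12 and 10.4 CPM against 10.9 and 28.6. Of the cyclin E genes, Ccne1 had 284 and 0 reads for STING ECKO against 58 and 315 for WT. Ccne2 was at 25.6 and 17.2 CPM against 16.3 and 6.46, a log2 fold change of 0.91 (SE 0.89; 0.40 without WT 5 and 1.73 without WT 3), so the pair did not move together. The Ccne2 count is uncertain, since 14.4% of its windows also lie in Ints8 on the opposite strand. Ints8 had 467 and 444 reads for STING ECKO against 318 and 245 for WT, and its part in the Ccne2 count was not tested.

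**Figure D4:**
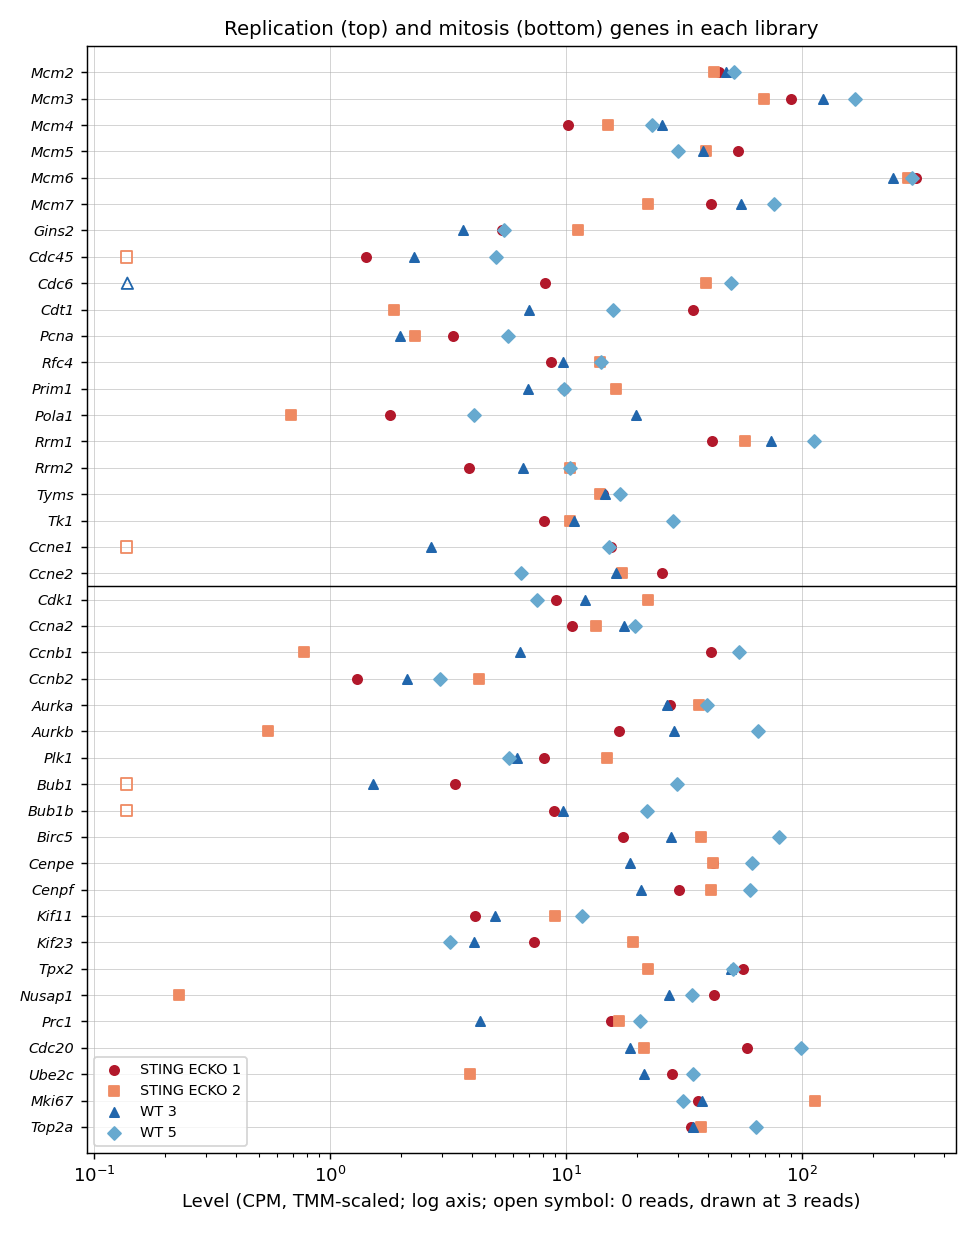
Level of each of the 41 genes (CPM, log axis) in the 4 libraries, one symbol per library, with open symbols for 0 reads drawn at the level of 3 reads. WT 5 (light blue diamonds) is rightmost for 25 genes, and STING ECKO 2 (orange squares) is far to the left for Cdc45, Ccne1, Ccnb1, Aurkb, Bub1, Bub1b and Nusap1.

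Several mitosis genes were almost without reads in STING ECKO 2 while others peaked there. Bub1, a kinase of the spindle checkpoint (chromosome 2, 127801122 to 127831865), had 62 and 0 reads for STING ECKO against 33 and 616 for WT. Bub1b, which encodes the checkpoint protein BubR1 (chromosome 2, 118598211 to 118641591), had 163 and 0 against 210 and 458. Nusap1, a spindle microtubule protein (chromosome 2, 119618298 to 119651244), had 777 and 5 against 590 and 708. For Bub1b and Nusap1 STING ECKO 1 lay near or above WT 3, so the lowest values were in 1 library and not in both of its genotype. For Bub1 STING ECKO 1 and WT 3 were low as well, and WT 5 alone was high. Aurkb, the kinase of the chromosomal passenger complex (chromosome 11, 69045647 to 69051664), was at 16.7 and 0.549 CPM for STING ECKO against 28.8 and 65.4 for WT. Its log2 fold change was -2.45 (SE 1.52), and -1.49 without STING ECKO 2 but -6.41 without STING ECKO 1. Birc5 (survivin), of the same complex as Aurkb, did not share the low value, at 17.6 and 37.4 CPM for STING ECKO against 28.0 and 80.4 for WT.

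The mitotic cyclin Ccnb1, which is described because of its values, stood at 41.0 and 0.777 CPM for STING ECKO against 6.38 and 54.5 for WT. It was thus high in 1 library of each genotype, with a ratio of 70.1 between the highest and the lowest. Pseudogenes share 23.4% of its windows. Its kinase partner Cdk1 was highest where Ccnb1 was lowest, with 166 and 489 reads for STING ECKO against 260 and 156 for WT, a log2 fold change of 0.68 (SE 0.97) that was -0.10 without STING ECKO 2. Ccna2 was at 10.6 and 13.4 CPM against 17.6 and 19.7, and Ccnb2 ranged from 1.31 to 4.30 CPM.

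Low counts of this kind were frequent among all genes in STING ECKO 2. Of 18 members with a mean of 5 to 20 CPM over the remaining libraries, 3 had 5 or fewer reads in STING ECKO 2 (Ccne1, Bub1 and Bub1b), beside 21.1% of 3415 genes. At 20 to 50 CPM it was 1 of 12 members (Nusap1), beside 3.74% of 2887 genes. For WT 3 it was 1 of 14 members (Cdc6) at 20 to 50 CPM, beside 0.668% of 2843 genes. The share among the members at 5 to 20 CPM was thus near that of all genes, and the counts at 20 to 50 CPM were of 1 gene each.

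Mki67, the antigen Ki-67 that coats mitotic chromosomes and is widely used to mark cycling cells (chromosome 7, 135689784 to 135716361), was at 36.2 and 113 CPM for STING ECKO against 37.9 and 31.4 for WT. STING ECKO 2 alone was high, and the other 3 lay close together. The log2 fold change was 1.11 (SE 0.64), and 0.07 without STING ECKO 2. Kif23, a kinesin of cytokinesis, was at 7.36 and 19.3 CPM against 4.07 and 3.23, a log2 fold change of 1.87 (SE 1.16), and 1.02 without STING ECKO 2. Plk1, polo-like kinase, was at 8.07 and 14.9 CPM against 6.20 and 5.74, a log2 fold change of 0.94 (SE 1.06), and 0.44 without STING ECKO 2. For these genes, among the 5 upward members of smallest p, STING ECKO 2 was the highest library. Top2a, the topoisomerase that untangles chromosomes, was at 33.8 and 37.6 CPM for STING ECKO against 34.7 and 63.9 for WT, so the high library was WT 5.

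By length the most abundant of the 21 mitosis genes were Cdc20, at 27.6 CPM per kilobase, then Aurka at 16.9 and Aurkb at 14.3. Cdc20, the activator of the anaphase-promoting complex (chromosome 4, 118432901 to 118437352), was at 58.4 and 21.4 CPM for STING ECKO against 18.7 and 99.6 for WT, with 1 high and 1 low library in each genotype. Ube2c, a ubiquitin-conjugating enzyme of that complex, ranged from 3.93 CPM in STING ECKO 2 to 34.6 in WT 5. Aurka, the spindle pole kinase, was steady, at 27.6 and 36.9 CPM against 26.8 and 39.7. Its activator Tpx2 was at 22.4 CPM in STING ECKO 2 and 50.2 to 56.4 elsewhere. The kinetochore genes Cenpe and Cenpf had like orders, from 18.7 and 20.9 CPM in WT 3 to 61.7 and 60.3 in WT 5. The spindle motor Kif11 ranged from 4.14 to 11.8 CPM, and the midzone protein Prc1 from 4.35 CPM in WT 3 to 20.6 in WT 5.

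Over all 41 genes the genotypes did not overlap in 12 that were lower and 5 that were higher in STING ECKO, where 34.4% of the 13365 genes tested did not overlap in either direction. Of the 12, 9 were replication genes, namely Mcm2, Mcm3, Mcm4, Mcm7, Cdc45, Pola1, Rrm1, Tyms and Tk1. The other three were Ccna2, Aurkb and Bub1b. The 5 higher genes were Mcm5, Prim1, Ccne2, Plk1 and Kif23. Without WT 3, 7 genes were higher and 27 lower, beside 28.0% and 33.9% of all genes in that fit. Without WT 5, 14 were higher and 12 lower, beside 28.8% and 33.0%.

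Libraries of one genotype differed as much as libraries of different genotypes. The median absolute log2 difference over the 41 genes was 1.06 between STING ECKO 1 and 2 and 0.67 between WT 3 and 5, beside 0.85 and 0.58 for all genes tested. Across genotypes it ranged from 0.63 (STING ECKO 1 and WT 3) to 1.20 (STING ECKO 2 and WT 5). The mitosis genes varied more within STING ECKO, at 1.33, than the replication genes, at 0.63. Of the 41 genes 33 (80.5%) were lower in WT 3 than in WT 5, as were 51.1% of all genes tested.

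The deposited tables set STING ECKO 1 beside WT 3 and STING ECKO 2 beside WT 5, with no library in common. Relative to its WT partner, 17 of the 41 genes were lower in both STING ECKO libraries, 6 were higher in both and 18 differed in sign, counting 15 that were higher in the first pair only. For all genes tested, 27.4% were lower in both and 22.7% higher in both. The authors' deposited table of the first pair marked 8 members up and 2 down, where it marked 21.5% and 19.4% of its genes. The authors' deposited table of the second pair marked 6 up and 17 down, where it marked 17.0% and 35.1%. In the authors' deposited tables Pola1 was marked down in both, and Cdt1, Ccne1, Ccnb1, Bub1 and Cdc20 were marked up in the first and down in the second. These marks compare 1 library with 1 library. By log2 CPM, differences over 2-fold in both pairs had opposite signs in 5 of the 41 genes (12.2%), beside 11.7% of all genes tested. They had the same sign in 1 of the 41 (2.44%), beside 11.6%. The opposite signs were thus as frequent as among all genes.

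**Figure D5:**
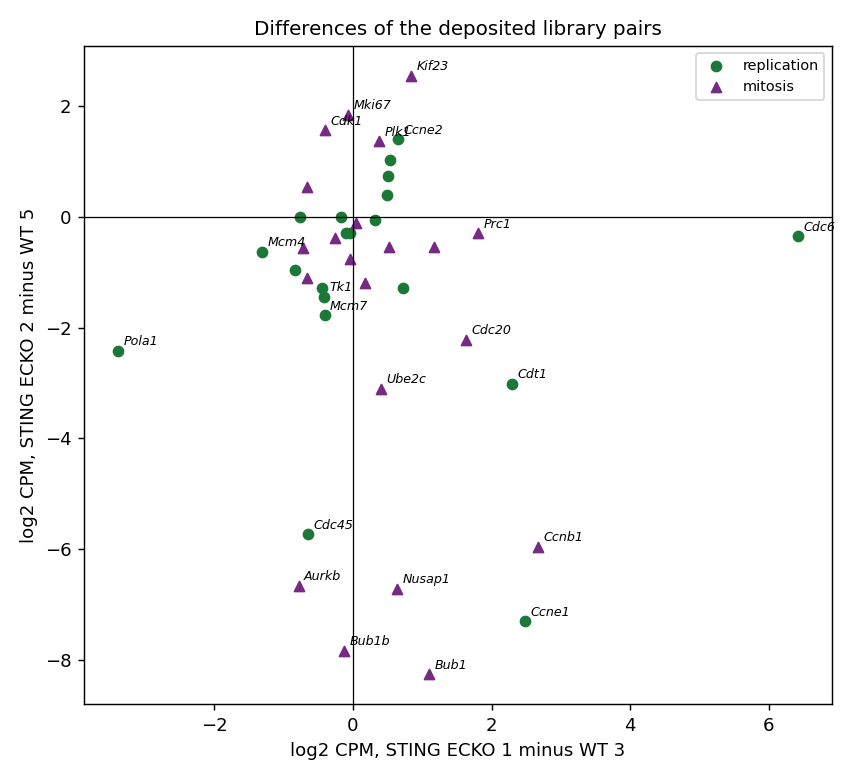
Difference in log2 CPM (prior count 2) of each gene between STING ECKO 1 and WT 3 (horizontal) and between STING ECKO 2 and WT 5 (vertical), with replication genes as circles and mitosis genes as triangles. Of the 41 genes 17 lie at lower left and 6 at upper right, and the vertical spread is wider than the horizontal.

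Other genes of the cycle, fixed as lists beside the 41, gave 0 calls in either direction by edgeR. Of 38 other replication genes 12 had a log2 fold change above 0 and 26 below, with a median of -0.26. Of 47 other mitosis genes it was 19 and 28, with a median of -0.36. These medians were close to those of the 41 genes. WT 5 had the highest sum of the other mitosis genes too, at 1427 CPM, against 959 (STING ECKO 1), 1149 (STING ECKO 2) and 880 (WT 3). For the other replication genes it stood out little, at 1633 CPM against 1569 (STING ECKO 1), 1457 (STING ECKO 2) and 1348 (WT 3).

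Among the other replication genes Pole2, a subunit of DNA polymerase epsilon, had no reads for STING ECKO (0 and 0) against 78 and 229 for WT, and its catalytic partner Pole had 16 and 0 against 142 and 132. Uhrf1, which maintains DNA methylation at the fork, was at 65.6 and 69.5 CPM for STING ECKO against 23.9 and 39.1 for WT, and Rpa2, of the single-strand binding complex, was at 105 and 144 against 68.5 and 88.3. Pole2, Pole, Uhrf1 and Rpa2 were named as the genes of smallest p in each direction, so both directions had to appear. Over the whole list of other replication genes 12 lay above 0 and 26 below. Among the other mitosis genes Racgap1, a partner of Kif23 in the centralspindlin complex, was at 3.33 and 3.06 CPM against 13.8 and 54.4, and so lay opposite to Kif23. Knstrn, a kinetochore protein, was at 10.5 and 10.6 CPM against 36.8 and 32.0. Ncapd2, a condensin subunit, was at 57.1 and 76.8 CPM against 43.7 and 23.6, and the phosphatase gene Cdc25c had 17 and 39 reads against 0 and 5.

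Genes of the factors known to act on such promoters were uneven between libraries. E2f1, an activator of replication genes, had 5 and 402 reads for STING ECKO against 21 and 118 for WT. Foxm1, which acts on mitosis genes, had 95 and 0 against 263 and 584, and Mybl2 had 2 and 2 against 71 and 5, too few to be tested. STING ECKO 2 was thus the highest library for E2f1 and at 0 for Foxm1. E2f3 was at 2.45 and 4.66 CPM against 13.2 and 17.8, E2f4 at 66.0 and 145 against 41.2 and 76.2, and the E2F partner gene Tfdp2 at 20.1 and 4.66 against 73.1 and 17.9. Rb1, the retinoblastoma repressor of E2F, was at 18.8 and 32.0 CPM for STING ECKO against 8.74 and 3.62 for WT, a log2 fold change of 2.04 (SE 0.93, adjusted p = 1.00 by edgeR). Of 19 regulators tested 8 lay above 0 and 11 below, with a median of -0.34.

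G1 cyclins and kinases were far more abundant as a group, with a summed level of 2156 to 2469 CPM, and steadier in that sum. Single genes differed in this. The ratio of highest to lowest library was 1.16 for Cdk4 and 1.20 for Ccnd1, but 3.03 for Cdk2 and 3.33 for Cdk7. Ccnd1, cyclin D1, was at 725 and 690 CPM for STING ECKO against 830 and 782 for WT, and Cdk6 at 262 and 302 against 204 and 111. Cdk2, the partner of cyclin E, was at 48.0 and 145 CPM against 75.8 and 109, and Cdc25a, which activates it, at 29.7 and 34.9 against 59.1 and 34.2. Of these 8 genes 4 lay above 0 and 4 below. Among 9 inhibitors, Cdkn1a (p21) was at 196 and 338 CPM for STING ECKO against 246 and 224 for WT, and Cdkn1b (p27) at 21.5 and 39.6 against 35.2 and 32.7, with overlap in both. Cdkn2c (p18) had 53 and 122 reads against 21 and 14, and Cdkn1c (p57) 65 and 198 against 82 and 38. The antiproliferative genes Btg2 and Btg1 were at 267 and 300 CPM against 306 and 393, and at 17.6 and 38.1 against 39.9 and 30.8.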

How the data were processed

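Per the labels, RNA of 4 libraries of mouse brain endothelial cells was sequenced. Alignment and counting tools, per the submitters' processing notes, were TopHat2 2.0.12 with Bowtie2 2.2.3, then HTSeq 0.6.0, on mm9. For strand setting and annotation, nothing was given in the sources used here. Positions in the tables are those of GRCm38: 89.7% of 17858 genes matched GENCODE M21 exactly. Each gene has a whole-number read count, deposited without normalization. CPM values deposited beside it were not used for tests. The authors added, for each pair of libraries, a fold (ratio), its log2 and a p-value; all rest on 1 library per genotype, and their p-values are not printed. A table lists a gene only with reads in both libraries or at least 5 in one.

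The tables were merged by gene identifier, with 20 spreadsheet-altered symbols restored. Genotypes were compared with edgeR 4.0.16 in R 4.3.3 (TMM factors, filterByExpr at min.count 10, quasi-likelihood test, Benjamini-Hochberg adjustment over all genes at 0.05). The SE was taken from the log2 fold change and its F statistic. Levels per length use the exons of the GENCODE M21 basic set. Shared sequence is the percentage of 50-base windows of a gene's transcripts found in transcripts of other genes. It was over 10% for 9 of the 41 genes: Mcm7, Gins2, Pcna, Ccne2, Ccna2, Ccnb1, Plk1, Cdc20 and Ube2c. DESeq2 1.42.0, limma 3.58.1, other scalings and filters, a table block and fits without each library in turn served as alternatives.

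The genes, lists and naming rule were chosen with earlier results of these data known. Values in every library are given for the 3 most abundant genes per length and class, the 5 of smallest p per direction, those with 5 or fewer reads in a library, Mki67, Top2a, Pcna and Cdk1. For the other cycle lists they are given for the 2 of smallest p per direction and a few fixed regulators.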

Additional observations from a re-analysis of the deposited data

How the results depend on the processing

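No alternative called any of the 41 genes. Over all genes, DESeq2 called 87, the edgeR likelihood ratio test 33 and every other alternative 0. Medians were followed under other scalings, filters, the genes of one table and the block by table. They ranged from -0.33 to -0.21 for all 41 genes, from -0.33 to -0.15 for replication and from -0.40 to -0.33 for mitosis genes. The sums were recomputed under the scalings and the genes of one table. Their difference between genotypes ranged from -0.26 to -0.17 for all, -0.27 to -0.17 for replication and -0.24 to -0.15 for mitosis genes. Spreads within genotypes (pooled SD of the log2 sums) were 0.34, 0.22 and 0.54. WT 5 was the highest library for 23 to 26 of the 41 genes under 4 other scalings, chosen after seeing the data. The labels give the genotypes no shared replicate numbers; the paired fit, a block by deposited table, called 0 genes and left 12 of the 41 above and 29 below 0, with a median of -0.33.

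Leaving out 1 library mattered more. The median log2 fold change then ranged from -0.71 to 0.28 for all 41 genes, from -0.71 to 0.17 for replication genes and from -0.71 to 0.39 for mitosis genes; it was above 0 without WT 5. The difference in mean log2 sum ranged from -0.57 to 0.11 for all and from -0.74 to 0.33 for mitosis genes, also above 0 without WT 5. For replication genes that difference stayed below 0, from -0.44 to -0.02. Genes with non-overlapping genotypes ranged from 7 to 14 higher and from 12 to 27 lower, while over all genes tested in the same fits the shares were 28.0% to 34.4% higher and 32.2% to 43.4% lower. Among 14 genes followed by name, signs turned for Cdk1 (-0.10 to 1.19), Pcna (-1.02 to 0.50), Top2a (-0.84 to 0.049) and Tmem173 (-0.55 to 0.63). More signs turned among the 41 genes. With every library 13 were above 0 and 28 below, against 25 and 16 without WT 5 and 10 and 31 without WT 3. It was 18 and 23 without STING ECKO 1, and 16 and 25 without STING ECKO 2. The cause was not tested. In these fits the lone library is assumed to vary like the genotype left with 2. Read counts per gene and library ran from 0 to 6167, and the SE was 0.21 for Mcm6, the gene of most reads, and 2.62 for Bub1, with a library at 0.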
